A study of Mus musculus with 31 samples.

Results

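Multipotent progenitors (MPP) and long-term hematopoietic stem cells (HSC) from the bone marrow of β-glucan-treated mice were compared by RNA-seq 28 days after injection. The 8 libraries, 4 per cell type, were chosen by cell type, treatment and day from the 31 libraries of the series, and 15945 of the 45706 genes in the count table passed the filter on low counts and were tested. The mice were C57BL/6 animals aged 10 weeks that received 1 mg of β-glucan in PBS by intraperitoneal injection. β-Glucan is a polysaccharide of fungal cell walls that is bound by the receptor dectin-1. As the control, the same comparison was made in 4 MPP and 4 HSC libraries of mice of the same strain and age that received PBS alone and were sampled on the same day. The column headers gave cell type, an initial (G or P) and a number. G was read as β-glucan and P as PBS, and the table was placed at day 28 because MPP were sorted only then. MPP library 1 of PBS mice carries an HSC cell-type tag although its title says MPP; the title was followed, and the library lay with the other MPP libraries on the leading principal component. The gates of the sort are not given in the labels. Whether numbered libraries came from separate mice is not stated in the labels; the p-values therefore speak only of the spread among these libraries, part of which may be technical.

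HSC sit at the top of the blood cell hierarchy, divide rarely and can repopulate the marrow for life. MPP arise from them, have lost most self-renewal, divide more often and include subsets that lean toward the lymphoid, the granulocyte-monocyte or the megakaryocyte-erythroid lineage. A part of the HSC pool is known to carry transcripts of the megakaryocyte lineage, whereas the MPP subset with Flt3 on its surface begins to transcribe lymphoid genes.

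The 8 libraries held 24567232 to 35860568 counts, with 22349 to 23444 genes detected. Levels below are in CPM, which relates a gene's counts to the library's total, scaled here by the TMM method. The 10 highest genes took 24.4 to 25.6% of the counts in HSC and 18.7 to 22.6% in MPP. Transcripts of mature cells were abundant in both cell types. The 4 adult haemoglobin genes held 15.9, 14.8, 16.7 and 15.4% of counts in HSC libraries 1 to 4 and 13.5, 15.2, 11.8 and 11.8% in MPP libraries 1 to 4, with an overlap at MPP library 2. The list of mature neutrophil genes held 6.51 to 7.39% in HSC and 5.51 to 6.49% in MPP. The part of these transcripts in the results below was not tested beyond a scaling factor computed without the lists of other cells, which gave 5671 changed genes. In sorted bulk samples, fewer cells of a type and less RNA per cell cannot be told apart.

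Cell type was the leading source of variation. In the 8 libraries the leading principal component (45.3% of the variance) separated HSC from MPP, and the next (12.5%) separated libraries 1 and 2 from libraries 3 and 4 within both cell types. The labels name no batch that corresponds to this split. With edgeR's quasi-likelihood test and Benjamini-Hochberg adjustment, 5678 of 15945 genes (35.6%) were called at an adjusted p under 0.05. Of these, 2815 (17.7%) were higher in MPP and 2863 (18.0%) were lower. Counts of called list members in β-glucan mice below are read against these shares. Most differences were small: 3905 of the called genes differed by less than 1.5-fold, and the median size over the called genes was 0.44 on the log2 scale. A difference over 2-fold was found for 620 genes, of which 208 were higher and 412 lower in MPP. The median over all genes tested was -0.01. For 5393 genes (33.8%) the 4 MPP libraries all lay on 1 side of the 4 HSC libraries. With the replicate number as a block, which treats equal numbers as pairs, 6706 genes were called, 3229 higher and 3477 lower, and 5622 genes were called in both fits. With libraries 1 and 2 alone 4481 genes were called, and with libraries 3 and 4 alone 1558. The number of called genes therefore depended on which libraries were used, and the latter fits had only 2 libraries per cell type.

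**Figure D1:**
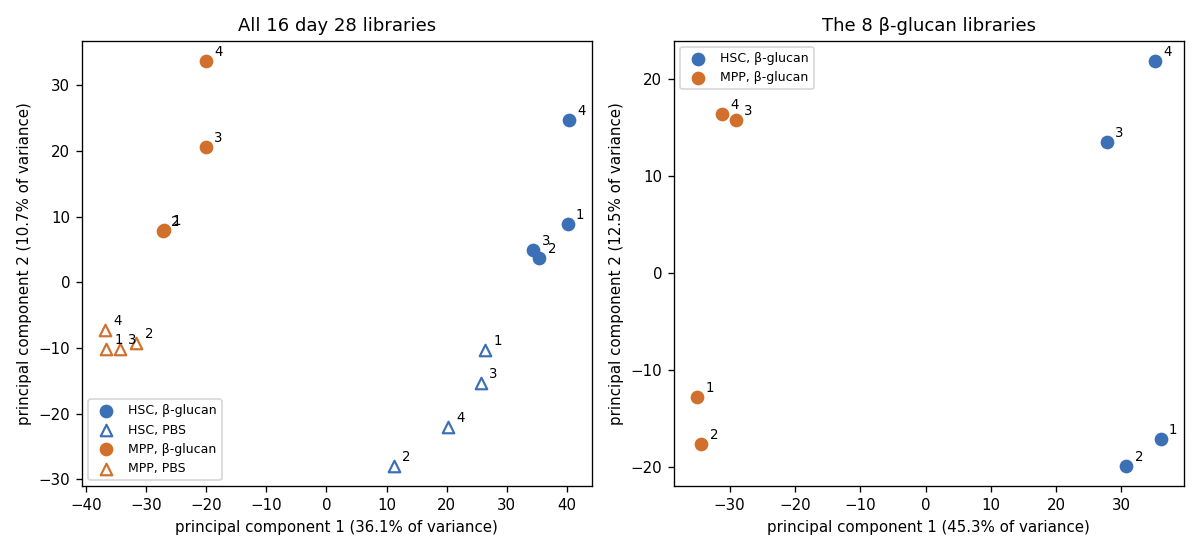
Principal components of log2 CPM for all 16 day 28 libraries (left) and the 8 β-glucan libraries (right); each point is 1 library, numbered as in the labels, and axes carry the percentage of variance. HSC and MPP separate on component 1 in both panels (36.1 and 45.3% of the variance), and libraries 3 and 4 lie apart from 1 and 2 on component 2 of the right panel.

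**Figure D2:**
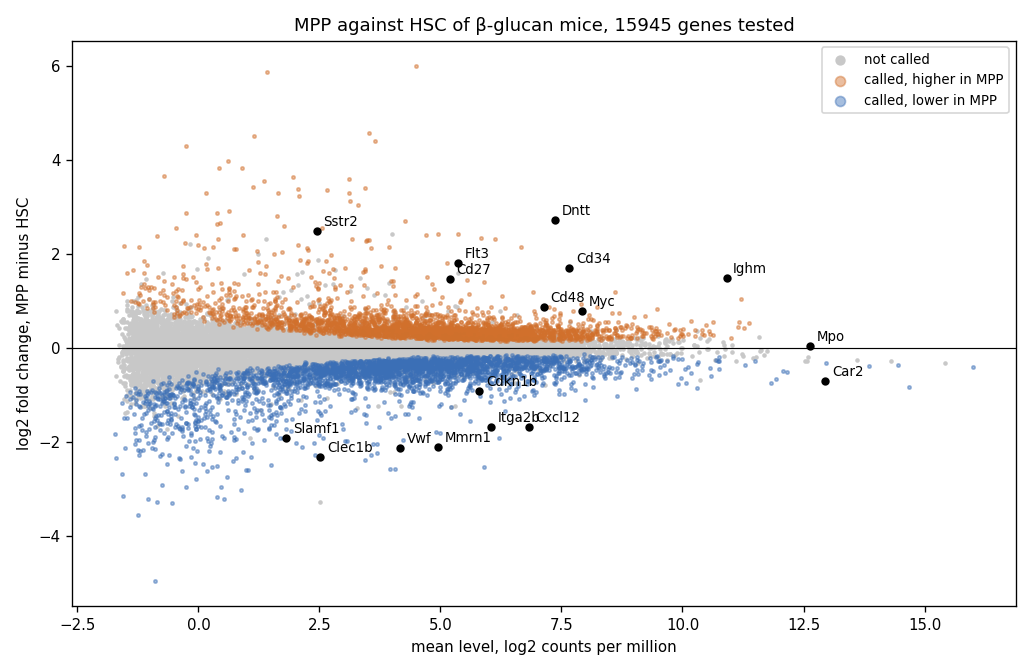
Each point is 1 of 15945 genes, by its mean level (x, log2 CPM) and its log2 fold change, MPP minus HSC (y). The 2815 called genes higher in MPP and the 2863 lower are coloured, and genes described in the text are marked in black.

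Of 10 genes whose products are commonly used to gate HSC and MPP, 6 were higher in MPP, 2 were lower and 2 were not called (median 0.57, all genes -0.01). Slamf1, which encodes CD150, the classical marker of HSC, lies at chr1:171767127-171801184 of mm10 (ENSMUSG00000015316). Its level was 5.54, 6.02, 5.28 and 4.36 in HSC libraries 1 to 4 and 1.29, 1.88, 1.09 and 1.29 in MPP libraries 1 to 4. The groups did not overlap, and the log2 fold change was -1.92 ± 0.18 (standard error; adjusted p = 3.93e-05, from the same test and adjustment as all adjusted p below). Its genomic neighbour Cd48 (chr1:171682009-171705258), whose product marks cells that have left the HSC state, went the other way, from 89.9, 104, 97.0 and 96.2 CPM in HSC to 184, 179, 170.0 and 180.0 CPM in MPP (log2 fold change 0.88 ± 0.06, adjusted p = 5.9e-06). Which of these markers the sort used is not given, and a marker used in a gate differs by that choice.

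Cd34 (chr1:194938819-194961279), encoding a sialomucin absent from most adult mouse LT-HSC, was at 98.9, 92.9, 90.4 and 88.8 CPM in HSC and at 278, 279, 300.0 and 356 CPM in MPP (log2 fold change 1.71 ± 0.09, adjusted p = 1.53e-06). Flt3 (chr5:147330741-147400489), the FLT3 ligand receptor, was at 11.9, 12.4, 22.8 and 24.2 CPM in HSC and at 48.3, 38, 69.6 and 92.6 CPM in MPP. In both cell types libraries 3 and 4 had more Flt3 than libraries 1 and 2, yet every MPP library was above every HSC library (log2 fold change 1.81 ± 0.30, adjusted p = 0.00111). Ly6a, encoding Sca-1, was at 23.5 to 32.7 CPM in HSC and at 52.5 to 61.1 CPM in MPP (log2 fold change 1.01 ± 0.10). The stem cell factor receptor gene Kit differed least among the called markers, with 154 to 179 CPM in HSC and 185 to 241 in MPP (log2 fold change 0.26 ± 0.08, adjusted p = 0.0317). The Kit call was lost when all 4 groups were fitted together (adjusted p = 0.0619) and without HSC library 2 (0.057), HSC library 4 (0.0957), MPP library 1 (0.104, with a log2 fold change of 0.17) or MPP library 3 (0.0501). Procr, encoding the endothelial protein C receptor, overlapped between 5.34 to 6.43 CPM in HSC and 4.29 to 5.41 in MPP (log2 fold change -0.24 ± 0.12, adjusted p = 0.129).

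Of 35 tested genes of a list associated with LT-HSC (36 in all; Tcf15 was not tested), 25 were lower in MPP, 3 were higher and 7 were not called, with a median of -0.74. Adhesion and receptor genes among them included Esam, encoding an endothelial adhesion molecule used to purify HSC, which was at 25.4, 25.9, 21.9 and 21.6 CPM in HSC and at 8.26, 8.43, 8.21 and 9.65 in MPP (log2 fold change -1.45 ± 0.09, adjusted p = 5.9e-06). The angiopoietin receptor gene Tek had a log2 fold change of -1.86 ± 0.20, and Fgd5, used in HSC reporter mice, one of -1.77 ± 0.29. Among transcription factor genes, Hoxb5 was at 0.443, 0.88, 0.718 and 0.86 CPM in HSC and at 0.0882, 0.094, 0.0 and 0.11 CPM in MPP (log2 fold change -3.23 ± 0.47, adjusted p = 0.000494). Hoxb5 was thus near its detection limit in every library, and in PBS mice it did not pass the filter on low counts. Mecom, which is required for HSC maintenance, had a log2 fold change of -0.77 ± 0.13.

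Other HSC regulators in the same list were not called: Hlf had a log2 fold change of -0.07, Meis1 of 0.02 and Prdm16 of -0.09. Meis1 was at 73.2, 66.8, 70.3 and 66.2 CPM in HSC and at 67.9, 64.7, 65.6 and 80.8 CPM in MPP, so the groups overlapped. The 3 members higher in MPP were Ly6a, Hoxa9 (log2 fold change 0.99 ± 0.11) and Ifitm1 (0.87 ± 0.09), the last coding for an interferon-induced membrane protein. The summed share of counts of the LT-HSC list was 0.13 to 0.135% in HSC and 0.13 to 0.141% in MPP. The list's sum therefore did not separate the cell types although 25 of its genes were lower in MPP.

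Imprinted genes, which are expressed from 1 parental allele and include growth regulators active in HSC, were measurable for 9 of 20 members. H19, Igf2, Meg3, Dlk1 and 7 others did not pass the filter on low counts. Of the 9, 6 were lower in MPP and 0 higher (median -0.73). Cdkn1c, encoding the cyclin-dependent kinase inhibitor p57 that holds HSC in quiescence, was at 1.77, 0.936, 1.12 and 1.21 CPM in HSC and at 0.382, 0.282, 0.211 and 0.368 CPM in MPP (log2 fold change -1.99 ± 0.28, adjusted p = 0.000425). Ndn, encoding necdin, was at 3.17 to 3.35 CPM in HSC and 0.627 to 0.957 CPM in MPP (-2.02 ± 0.17). Grb10, encoding an adaptor of growth factor receptors, had a log2 fold change of -1.39 ± 0.17.

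**Figure D3:**
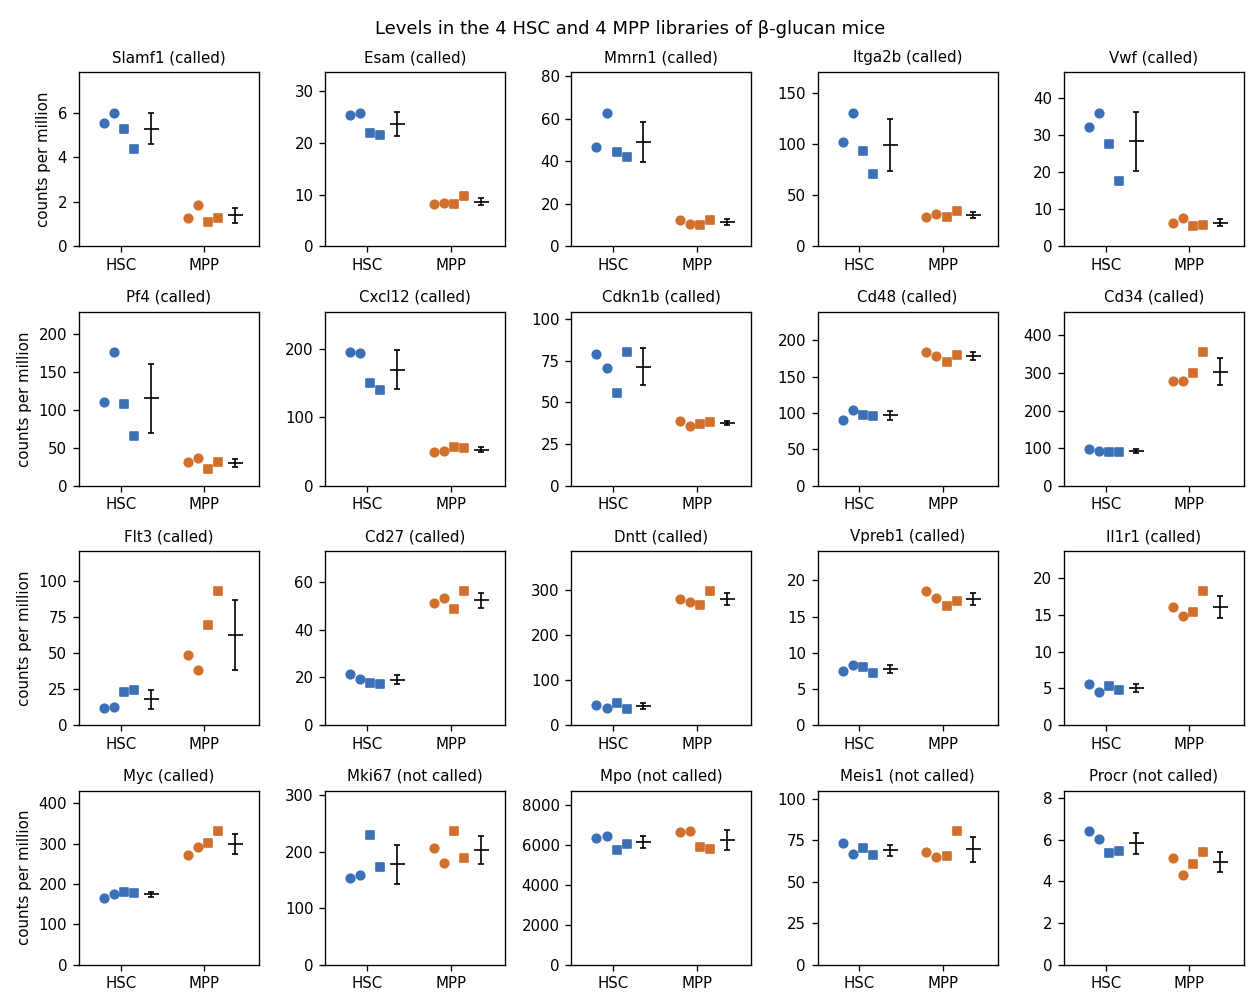
Levels of 20 genes in CPM (each panel from 0) in the 4 HSC and 4 MPP libraries of β-glucan mice; circles are libraries 1 and 2, squares 3 and 4, and the bar is the mean ± SD (n = 4). The groups are apart for the 16 called genes and overlap for Mki67, Mpo, Meis1 and Procr.

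Megakaryocyte genes formed the list with the lowest median. Of 26 members, 25 were lower in MPP and 0 were higher, against 18.0% of all genes lower, and the median was -1.72. Vwf, encoding the von Willebrand factor that binds platelets to damaged vessels (chr6:125546774-125686679), was at 32.2, 36.1, 27.5 and 17.6 CPM in HSC and at 6.38, 7.74, 5.53 and 5.89 CPM in MPP. The log2 fold change was -2.14 ± 0.19 (adjusted p = 3.57e-05). HSC library 4 was the lowest of the HSC and still above every MPP library. Mmrn1, encoding multimerin of platelet granules, was at 46.9, 62.9, 44.2 and 42.0 CPM in HSC and at 12.4, 10.4, 9.8 and 12.6 CPM in MPP (-2.12 ± 0.13). Itga2b, encoding the integrin CD41, was at 102, 131, 92.9 and 70.7 CPM in HSC and 28.3 to 34.5 CPM in MPP (-1.69 ± 0.15). Its partner Itgb3 had a log2 fold change of -1.82 ± 0.20.

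Genes of platelet granules and surface receptors varied more among the HSC libraries. Pf4, encoding platelet factor 4, was at 110.0, 176, 108 and 65.9 CPM in HSC and at 31.2, 35.9, 22.6 and 30.9 CPM in MPP (log2 fold change -1.92 ± 0.24, adjusted p = 0.000226). For Ppbp, another platelet chemokine gene, HSC ran from 11.7 CPM in library 4 to 222 CPM in library 2 and MPP from 3.1 to 27.9 CPM, so the groups overlapped although the gene was called (-2.53 ± 0.75, adjusted p = 0.0218). Tubb1, the platelet β-tubulin gene, showed the same order, from 6.21 CPM in HSC library 4 to 50.0 CPM in library 2, with 1.73 to 7.62 CPM in MPP. The von Willebrand receptor gene Gp1ba had a log2 fold change of -2.06 ± 0.40, which was -1.41 with libraries 3 and 4 alone. Clec1b, encoding the podoplanin receptor of platelets, had one of -2.33 ± 0.47, which was -1.51 with libraries 3 and 4 alone. The transcription factor genes of the lineage differed less, with -0.29 for Fli1, -0.42 for Nfe2 and -0.40 for Gfi1b. Selp, encoding P-selectin, was the member not called (0.15 ± 0.14, adjusted p = 0.435). With libraries 3 and 4 alone 15 members were lower and 0 higher, and with libraries 1 and 2 alone 24 and 0.

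Gp5 encodes a subunit of the platelet receptor for von Willebrand factor, and Gp6 the platelet receptor for collagen. They were the megakaryocyte genes whose RefSeq promoter window held AGATAA, a core recognised by GATA factors, and are shown to give the sequence context of 2 members that were lower in MPP. The 250 bases before the annotated start are printed on the strand of the gene in build GRCm38.p6 (mm10), with capitals at AGATAA on either strand (TTATCT where it lies on the other strand).
Gp5 (chr16:30310782-30311031, minus strand): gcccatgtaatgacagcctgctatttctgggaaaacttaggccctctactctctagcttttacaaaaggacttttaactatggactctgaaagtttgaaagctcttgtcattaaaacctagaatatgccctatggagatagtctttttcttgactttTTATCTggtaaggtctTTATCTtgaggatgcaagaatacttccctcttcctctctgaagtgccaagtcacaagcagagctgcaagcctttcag
Gp6 (chr7:4397745-4397994, minus strand): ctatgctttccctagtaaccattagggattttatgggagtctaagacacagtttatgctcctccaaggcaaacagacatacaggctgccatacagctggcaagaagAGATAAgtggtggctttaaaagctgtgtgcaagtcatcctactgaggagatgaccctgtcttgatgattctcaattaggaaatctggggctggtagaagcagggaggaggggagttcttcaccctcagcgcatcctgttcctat
AGATAA was found in 2 of the 18 megakaryocyte promoters matched in RefSeq (11.1%) and in 6.2% of the 10267 promoters of tested genes. A match is a description of the letters in the window. Gp5 was at 1.39, 2.95, 1.09 and 1.05 CPM in HSC and at 0.618, 0.533, 0.388 and 0.368 CPM in MPP (log2 fold change -1.75 ± 0.36, adjusted p = 0.00371). Gp6 was at 3.29, 7.26, 2.25 and 0.35 CPM in HSC and at 0.353, 1.28, 0.106 and 0.884 CPM in MPP (-2.32 ± 0.75, adjusted p = 0.0325). The Gp5 groups were apart, and those of Gp6 overlapped at HSC library 4.

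Erythroid genes were lower in MPP at both the progenitor and the mature stage. Of 22 erythroid priming genes 19 were lower and 0 higher (median -0.47). The erythroid transcription factor gene Klf1 was at 92.1, 101, 102 and 132 CPM in HSC and at 36.9, 28.4, 65.1 and 64.2 CPM in MPP (log2 fold change -1.13 ± 0.24, adjusted p = 0.00403). Tal1, which acts in both stem and erythroid cells, had a log2 fold change of -0.92 ± 0.10 and Gata1 of -0.47 ± 0.07. The erythropoietin receptor gene Epor had one of -0.67 ± 0.11, and the carbonic anhydrase gene Car2, at 8560 to 10500 CPM in HSC, one of -0.71 ± 0.09. Of 25 genes of mature red cells, 23 were lower and 0 higher (median -0.55), and their share of counts was 15.8 to 17.7% in HSC and 12.4 to 15.9% in MPP. Among these, Hba-a1 had a log2 fold change of -0.40 ± 0.14 (adjusted p = 0.0422), Hbb-bs one of -0.28 ± 0.13 (adjusted p = 0.117) and the membrane skeleton gene Sptb one of -1.06. The haemoglobin genes are near-identical copies, so the split of reads between them is uncertain. The part of red cell transcripts in the differences of the priming genes was not tested.

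Genes higher in MPP included lymphoid and progenitor transcripts. Of 20 genes associated with MPP, 15 were higher and 0 lower (median 0.72), against 17.7% of all genes higher. This list includes Cd48, Flt3, Cd34 and Cd244a, and any of them used in the gate differs by that choice. Of 26 lymphoid priming genes, 14 were higher and 0 lower (median 0.36). Dntt, Satb1 and Notch1 are in both lists, so the lists are not separate. Dntt, encoding the terminal transferase that adds bases at V(D)J joins (ENSMUSG00000025014, chr19:41029275-41059523), was at 45.2, 38.9, 50.4 and 35.8 CPM in HSC and at 281, 275, 267 and 298 CPM in MPP. With a log2 fold change of 2.72 ± 0.10 (adjusted p = 1.78e-07), it had the smallest p of all genes. The surrogate light chain genes of pre-B cells followed, Vpreb1 with 7.14 to 8.26 CPM in HSC and 16.5 to 18.5 CPM in MPP (1.17 ± 0.08) and Igll1 with a log2 fold change of 1.09 ± 0.09. The recombinase gene Rag2 was at 2.41 to 5.59 CPM in HSC and 8.96 to 11.0 CPM in MPP (1.49 ± 0.21), whereas Rag1 overlapped between the groups (0.07 ± 0.15, adjusted p = 0.75). The interleukin-7 receptor gene Il7r was called with overlapping groups, at 12.4 to 20 CPM in HSC and 19.4 to 24.6 in MPP (0.48 ± 0.13, adjusted p = 0.0147).

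The chemokine receptor gene Ccr9, which guides progenitors to the thymus, had a log2 fold change of 0.90 ± 0.09, and Il12a, encoding a subunit of interleukin-12, one of 1.43 ± 0.09. The regulators of the committed B and T lineages in the same list were not called, with log2 fold changes of -0.17 for Ebf1, -0.02 for Pax5, 0.11 for Tcf7 and -0.02 for Notch1. Among MPP genes, the TNF receptor family member Cd27 was at 21.5, 19.5, 17.8 and 17.3 CPM in HSC and at 51.3, 53.2, 48.9 and 56.1 CPM in MPP (1.46 ± 0.08, adjusted p = 2.19e-06). Tespa1, an adaptor of antigen receptor signalling, had a log2 fold change of 1.70 ± 0.10 and the orphan receptor gene Gpr171 one of 1.41 ± 0.08. Outside the lists, the somatostatin receptor gene Sstr2 was at 1.48 to 1.81 CPM in HSC and 8.44 to 10.3 CPM in MPP (2.48 ± 0.13), and Clnk, an adaptor of immunoreceptor signalling, had a log2 fold change of 1.81 ± 0.13. Arpp21 (2.12 ± 0.17), Ifi205 (1.88 ± 0.19), Drc7 (1.86 ± 0.19) and Cd300e (1.70 ± 0.15) completed the 10 genes of largest increase among called genes with separated groups and a mean log2 CPM not under 2, a ranking that leaves out unnamed genes, pseudogenes and immunoglobulin and T cell receptor genes such as Ighg3, described below. Bex6 (1.52 ± 0.07) and the adhesion receptor gene Adgrl4 (1.19 ± 0.06) were among those of smallest p. All of these genes had every MPP library above every HSC library, except Rag1, Il7r, Ebf1, Pax5, Tcf7 and Notch1.

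Granulocyte-monocyte priming genes did not move together. Of 29, 4 were higher, 9 lower and 16 not called (median -0.11). Mpo, the myeloperoxidase gene of promyelocytes, was at 6320, 6410, 5740 and 6040 CPM in HSC and at 6640, 6690, 5860 and 5780 CPM in MPP, with overlapping groups (log2 fold change 0.03 ± 0.08, adjusted p = 0.816). Elane, encoding neutrophil elastase, was lower in MPP (-0.49 ± 0.10), as were the granulocytic transcription factor gene Cebpe (-0.95 ± 0.09) and Spi1, encoding PU.1 (-0.39 ± 0.09). The 4 members higher in MPP were Calr (0.41 ± 0.06), Cst7 (0.35), Ly86 (0.36) and Ctsg (0.18). Of 20 mature neutrophil genes, 14 were lower and 0 higher (median -0.35), the lowest being Lrg1 (-1.11 ± 0.14). Of 18 tested genes of mast cells, basophils and eosinophils, 12 were lower and 2 higher. The eosinophil granule genes Epx (-0.88 ± 0.11) and Prg2 (-0.75 ± 0.10) were lower, and the mast cell protease gene Cpa3 was higher (0.61 ± 0.10). The mast, basophil and eosinophil list held 0.576 to 0.719% of counts in HSC and 0.416 to 0.465% in MPP. The part of mature granulocyte transcripts in the priming genes was not tested.

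Antigen presentation and dendritic cell genes were higher in MPP. Of 10 MHC class II genes 9 were higher and 0 lower (median 0.53). H2-Eb1, encoding a class II β chain, was at 150.0, 170.0, 165 and 159 CPM in HSC and at 314, 341, 304 and 268 CPM in MPP (log2 fold change 0.93 ± 0.07, adjusted p = 1.5e-05). The class II transactivator gene Ciita differed less (0.25). Of 15 dendritic cell genes 11 were higher and 0 lower (median 0.62). Xcr1, the chemokine receptor gene of cross-presenting dendritic cells, was at 0.285, 0.397, 0.25 and 0.446 CPM in HSC and at 2.91, 2.6, 2.29 and 2.61 CPM in MPP (2.91 ± 0.21). Siglech and Tcf4, genes of plasmacytoid dendritic cells, had log2 fold changes of 0.79 ± 0.08 and 0.69 ± 0.06. The dendritic cell list held 0.0239 to 0.0256% of counts in HSC and 0.0403 to 0.0417% in MPP. Class II genes are transcribed by both dendritic and B cells, and the part of such cells in these differences was not tested.

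Genes of the cell cycle fell into groups that differed in direction. Genes of cycle entry and arrest were mostly lower in MPP: of 24 tested (Cdkn2a and Cdkn2b were not), 14 were lower and 4 higher (median -0.32). Cdkn1b, encoding the kinase inhibitor p27, was at 78.9, 70.7, 55.8 and 80.2 CPM in HSC and at 39.1, 36.1, 36.8 and 38.3 CPM in MPP (log2 fold change -0.92 ± 0.10, adjusted p = 0.000113). Foxo3, a transcription factor gene that keeps HSC quiescent, had a log2 fold change of -0.82 ± 0.11, the antiproliferative gene Btg1 one of -0.72 and Gas6 one of -1.38. Among the D cyclins Ccnd3 was lower (-0.73 ± 0.11) and Ccnd1 higher (0.71 ± 0.17), and the kinase gene Cdk4 was higher (0.39). Cdk6, whose product sets the speed of HSC exit from quiescence, was not called (-0.23 ± 0.11, adjusted p = 0.111), but was with the replicate block (adjusted p = 0.0285) and without HSC library 3 (adjusted p = 0.0208).

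Genes of DNA synthesis and mitosis showed no common direction. Of 52 DNA replication genes 12 were higher and 6 lower (median 0.04), and of 56 mitosis genes 8 were higher and 11 lower (median -0.03). Over all genes tested 17.7% were higher and 18.0% lower, and these counts lie near those shares. With 1 library left out, 7 to 13 DNA replication genes were higher and 5 to 9 lower. For mitosis genes the ranges were 3 to 12 higher and 10 to 13 lower. Without MPP library 1 the DNA replication genes higher in MPP numbered 7. The mitosis genes higher in MPP numbered 3 without HSC library 1, HSC library 4, MPP library 1 or MPP library 3, and 4 without HSC library 2 or MPP library 2. With the replicate block 15 DNA replication genes were higher and 9 lower, and 13 mitosis genes were higher and 14 lower. With libraries 3 and 4 alone 1 DNA replication gene was higher and 1 lower, and 0 mitosis genes were higher and 1 lower. Of the replication factor C genes, Rfc2, Rfc1 and Rfc3 were higher, with log2 fold changes of 0.36 ± 0.05, 0.41 ± 0.06 and 0.32 ± 0.06. Rfc4 and Rfc5, also in the list, are not described here. The transcription factor gene E2f2, by contrast, was at 219 to 239 CPM in HSC and 99.1 to 131 CPM in MPP (-0.98 ± 0.08). The cyclin gene Ccna2 had a log2 fold change of -0.59 ± 0.08. The proliferation marker gene Mki67 was at 153, 159, 229 and 172 CPM in HSC and at 207, 180.0, 237 and 188 CPM in MPP. These groups overlapped (0.19 ± 0.13, adjusted p = 0.264), with HSC library 3 above 3 of the 4 MPP libraries. Mki67 was called without that library (adjusted p = 0.0173) and with the replicate block (adjusted p = 0.0287).

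Promoters of mitosis genes share letters that the list did not use. CCAAT was found, on either strand of the 250 bases before the start, in 33 of 46 mitosis promoters matched in RefSeq (71.7%), in 26 of 42 DNA replication promoters (61.9%) and in 36.7% of all 10267. The cell cycle homology core, searched on both strands as TTTGAA and, as the other known form, TTCGAA, was found in 16 mitosis promoters (34.8%), in 6 DNA replication promoters (14.3%) and in 12.9% of all. Among called mitosis genes with such letters in a window wholly outside the gene model, the 3 of smallest p are printed. Genes of a single chromosome were left out of this choice, so a member there could not be picked. The printed genes differed in direction: Ttk, encoding a kinase of the spindle checkpoint, was higher in MPP. Espl1, encoding separase, and Plk1, a mitotic kinase gene, were lower. Capitals mark CCAAT and the homology core in either form, on either strand, in build GRCm38.p6, with each window read along the gene.
Ttk (chr9:83834439-83834688, plus strand): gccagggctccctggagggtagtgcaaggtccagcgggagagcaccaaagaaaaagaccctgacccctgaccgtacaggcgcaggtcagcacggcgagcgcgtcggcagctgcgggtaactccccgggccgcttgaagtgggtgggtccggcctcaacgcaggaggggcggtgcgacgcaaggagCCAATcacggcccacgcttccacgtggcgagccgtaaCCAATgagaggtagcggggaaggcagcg
Espl1 (chr15:102296043-102296292, plus strand): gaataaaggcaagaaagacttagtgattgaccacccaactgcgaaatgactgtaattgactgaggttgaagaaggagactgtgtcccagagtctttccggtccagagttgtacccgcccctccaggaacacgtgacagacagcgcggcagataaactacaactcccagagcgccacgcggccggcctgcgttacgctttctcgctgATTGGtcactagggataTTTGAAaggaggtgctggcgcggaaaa
Plk1 (chr7:122159185-122159434, plus strand): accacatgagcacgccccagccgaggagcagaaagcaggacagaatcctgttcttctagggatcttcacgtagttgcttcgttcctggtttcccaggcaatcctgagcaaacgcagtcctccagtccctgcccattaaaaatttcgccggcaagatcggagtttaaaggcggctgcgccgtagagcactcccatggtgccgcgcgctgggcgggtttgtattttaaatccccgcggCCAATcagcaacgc
Ttk was at 25, 26.5, 25.3 and 23.9 CPM in HSC and at 34.1, 32.9, 36.2 and 30.4 CPM in MPP (log2 fold change 0.41 ± 0.07, adjusted p = 0.00105). Espl1 was at 40.2, 38.1, 37.8 and 39.6 CPM in HSC and at 34.9, 31.1, 32.2 and 30.9 CPM in MPP (-0.27 ± 0.06, adjusted p = 0.00695). Plk1 was at 205, 233, 203 and 238 CPM in HSC and at 169, 182, 181 and 188 CPM in MPP (-0.28 ± 0.07, adjusted p = 0.00878). The groups were apart for all 3 genes, and promoters with these letters were thus found on genes of either direction.

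Ribosome production genes were higher in MPP. Of 41 ribosome biogenesis genes 33 were higher and 1 lower (median 0.37), and their share of counts was 0.355 to 0.379% in HSC and 0.521 to 0.58% in MPP. Myc, the transcription factor gene that drives this programme (chr15:61985341-61990374), was at 165, 176, 180.0 and 177 CPM in HSC and at 272, 291, 302 and 332 CPM in MPP (log2 fold change 0.78 ± 0.07, adjusted p = 3.55e-05). The nucleolar genes Nolc1 (0.72 ± 0.07), Gnl3 (0.71 ± 0.07), Ncl (0.68 ± 0.09) and Npm1 (0.66 ± 0.06) had log2 fold changes of similar size. The member lower in MPP was Odc1, the polyamine synthesis gene (-0.62). Of 51 ribosomal protein genes 33 were higher and 0 lower (median 0.27). Rpl4, of the large subunit, was at 1130 to 1230 CPM in HSC and 1610 to 1670 CPM in MPP (0.48 ± 0.06). Ribosomal proteins have many processed copies in the genome, so their counts are uncertain where reads were split. With libraries 3 and 4 alone 19 biogenesis genes were higher and 1 lower, and 5 ribosomal protein genes were higher and 0 lower. CACGTG, the E-box recognised by Myc, was found in 3 of 35 biogenesis promoters (8.57%) and in 8.21% of all.

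Genes of energy and lipid metabolism had medians near 0, and their calls are read against the 35.6% of all genes called in either direction. Of 60 oxidative phosphorylation genes 9 were higher and 1 lower (median 0.03), and 8 were lower without HSC library 3; with the replicate block 14 were higher and 9 lower. The succinate dehydrogenase gene Sdhc had a log2 fold change of 0.38 ± 0.06. Of 23 tested glycolysis genes 3 were higher and 5 lower (median -0.02), and 1 was higher without MPP library 1; with the replicate block 9 were lower. The genes lower in MPP included transporters: the glucose transporter gene Slc2a3 was at 272 to 360.0 CPM in HSC and 175 to 197 CPM in MPP (-0.77 ± 0.08), and the monocarboxylate transporter genes Slc16a1 and Slc16a3 had log2 fold changes of -0.79 ± 0.10 and -0.92 ± 0.12. Of 24 tested cholesterol synthesis genes 3 were higher and 3 lower (median -0.05), with Dhcr7 (0.37 ± 0.06) and the regulator gene Insig1 (-0.64 ± 0.15) at either side. Of 24 endoplasmic reticulum chaperone and unfolded protein response genes 5 were higher and 5 lower (median -0.13), and 10 were lower with the replicate block. The chaperone genes Calr (0.41 ± 0.06), Pdia4 (0.33), Pdia6 (0.30), Hsp90b1 (0.37) and Hyou1 (0.63) were those higher. The response genes Edem1 (-0.58 ± 0.08), Xbp1 (-0.37), Ern1 (-0.43) and Trib3 (-0.89) were lower, with Canx (-0.19).

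Immediate early genes, which respond within minutes to stimulation and to cell handling, were tested for 21 of 25 members, and 9 were lower and 1 higher in MPP (median -0.35). Without HSC library 4 the number lower was 5. Klf6 was at 143 to 170.0 CPM in HSC and 103 to 110.0 CPM in MPP (log2 fold change -0.57 ± 0.06), the phosphatase gene Dusp1 had a log2 fold change of -0.86 ± 0.14, and Fos was not called (0.03). The member higher in MPP was Ier3 (0.53), with overlapping groups.

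Receptors and responses of innate immunity were examined because β-glucan acts through dectin-1. Clec7a, the dectin-1 gene (chr6:129461591-129472777), was at 27.4, 34.2, 32.3 and 29.5 CPM in HSC and at 29.6, 30.2, 28.9 and 27.5 CPM in MPP. The groups overlapped and the log2 fold change was -0.08 ± 0.08 (adjusted p = 0.416). Il1r1, the signalling interleukin-1 receptor gene (ENSMUSG00000026072, chr1:40225080-40317257), was at 5.64, 4.45, 5.31 and 4.72 CPM in HSC and at 16.1, 14.8, 15.4 and 18.2 CPM in MPP (1.69 ± 0.11, adjusted p = 5.9e-06). Il1r2, its neighbouring decoy receptor gene, was lower in MPP (-0.49 ± 0.07), as was Il1rn, encoding the receptor antagonist (65.4 to 74.9 CPM in HSC, 40.4 to 47.7 CPM in MPP, -0.65 ± 0.07). Tlr3, the receptor gene for double-stranded RNA, was at 0.824, 0.511, 0.874 and 0.255 CPM in HSC and at 2.21, 2.91, 2.36 and 3.13 CPM in MPP (2.10 ± 0.29, adjusted p = 0.000382). Over the whole list of 32 interleukin-1, Toll-like receptor and dectin-1 pathway genes, 3 were higher and 7 lower (median -0.14). The shares of all genes were 17.7% and 18.0%. Those higher were Il1r1, Tlr3 and Tlr7, the last at 0.45. Myd88 (-0.02), Card9 (0.03) and Nfkb1 (0.04), which carry the signal inside the cell, were not called, and the NF-κB subunit gene Relb was lower (-0.89 ± 0.26).

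Of 23 tested myeloid cytokine receptor and signalling genes 10 were lower and 1, Kit, higher (median -0.23). Besides Epor these included the kinase genes Jak2 (log2 fold change -0.62 ± 0.08) and Jak1 (-0.43 ± 0.06) and the feedback inhibitor gene Socs2, at 2.75 to 5.04 CPM in HSC and 1.29 to 1.90 CPM in MPP (-1.37 ± 0.21). Csf2rb, the shared receptor subunit gene of GM-CSF, IL-3 and IL-5, was at 148, 159, 155 and 164 CPM in HSC and at 136, 142, 136 and 130 CPM in MPP (-0.20 ± 0.05, adjusted p = 0.0114). Of 34 type I interferon genes 11 were higher and 5 lower (median 0.09), against 17.7% and 18.0% of all genes. Without MPP library 2 the number higher was 7. Antiviral genes Mx1 (1.00 ± 0.23), Ifi44 (1.06 ± 0.14) and Bst2 (0.63 ± 0.06) were higher, and Isg15 (-0.56 ± 0.08), Isg20 (-0.57), Oas3 (-0.49 ± 0.06), Rsad2 (-0.47) and Cmpk2 (-0.66 ± 0.11) were lower. Of 28 tested interferon gamma response genes 13 were higher and 2 lower (median 0.24), among them the guanylate-binding protein gene Gbp3, at 17.6 to 20.4 CPM in HSC and 32.4 to 33.2 CPM in MPP (0.79 ± 0.06), and the transcription factor gene Irf1 (0.60 ± 0.10).

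Adhesion and niche genes were mostly lower in MPP. Of 26 adhesion molecules and niche receptors 16 were lower and 1, Pecam1 (log2 fold change 0.73 ± 0.07), higher (median -0.33). Jam2, a junctional adhesion gene, had a log2 fold change of -2.47 ± 0.39, and Tgfbr3, the TGF-β co-receptor gene, one of -1.35 ± 0.13. The niche receptor gene Cxcr4 differed by -0.27. Of 20 tested stromal and endothelial genes 11 were lower and 1 higher, Emcn at 0.64 (median -1.19). Cxcl12, the ligand gene of CXCR4 and a main product of marrow stroma, was at 196, 194, 151 and 140.0 CPM in HSC and at 48.7, 50.7, 56.4 and 54.7 CPM in MPP (-1.69 ± 0.11, adjusted p = 5.9e-06). The stem cell factor gene Kitl (-1.53 ± 0.16), the leptin receptor gene Lepr (-1.44 ± 0.18) and the adipocyte hormone gene Adipoq (-1.43 ± 0.17) were lower as well. The collagen genes Col1a1 (-1.24) and Col3a1 (-0.79) were not called, their groups overlapped, and Cdh5, a defining endothelial gene, differed by 0.01. The stromal and endothelial list held 0.0445 to 0.0584% of counts in HSC and 0.0216 to 0.0367% in MPP, and the part of such cells in these results was not tested. Extracellular matrix genes outside the lists were also among the largest decreases in the ranking that leaves out immunoglobulin genes: Timp3 (-2.04 ± 0.36), Ltbp1 (-2.12 ± 0.30, -1.31 with libraries 3 and 4 alone), Mmp13 (-2.28 ± 0.25) and the actin-binding gene Cald1 (-2.02 ± 0.33), together with Cavin2 (-2.24 ± 0.23) and Fhl1 (-2.02 ± 0.18).

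Immunoglobulin genes stood out among the transcripts of mature lymphocytes. Of 14 plasma cell genes 8 were higher in MPP and 0 lower (median 0.80), and their share of counts was 0.207 to 0.269% in HSC and 0.456 to 0.589% in MPP. Ighm, the μ heavy chain gene, was at 907, 1040, 790.0 and 1240 CPM in HSC and at 3170, 2380, 2920 and 2620 CPM in MPP (log2 fold change 1.48 ± 0.14, adjusted p = 4.18e-05). Jchain, which links IgM and IgA multimers, had a log2 fold change of 1.20 ± 0.11 and Igkc one of 1.04 ± 0.08. Ighg3 was at 1.05, 0.312, 1.06 and 0.319 CPM in HSC and at 82.9, 59.4, 20.7 and 11.3 CPM in MPP (6.00 ± 0.69, adjusted p = 0.00013), with a wide range among the MPP libraries. The B cell surface gene Ms4a1 was not called, with a log2 fold change of 0.07. Of 17 B cell genes 4 were higher and 1 lower (median 0.05), and 3 were lower without HSC library 1. The B cell list, which includes Ighm, held 0.172 to 0.21% of counts in HSC and 0.336 to 0.433% in MPP, and the part of B lineage cells in the immunoglobulin and lymphoid results was not tested. Of 21 T and NK cell genes 3 were higher and 1 lower (median 0.02), and 1 was higher without HSC library 1, HSC library 2 or MPP library 2. Of 20 monocyte and macrophage genes 3 were higher and 7 lower (median -0.11). Immunoglobulin segments resemble each other closely, so counts of single segments are uncertain.

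**Figure D4:**
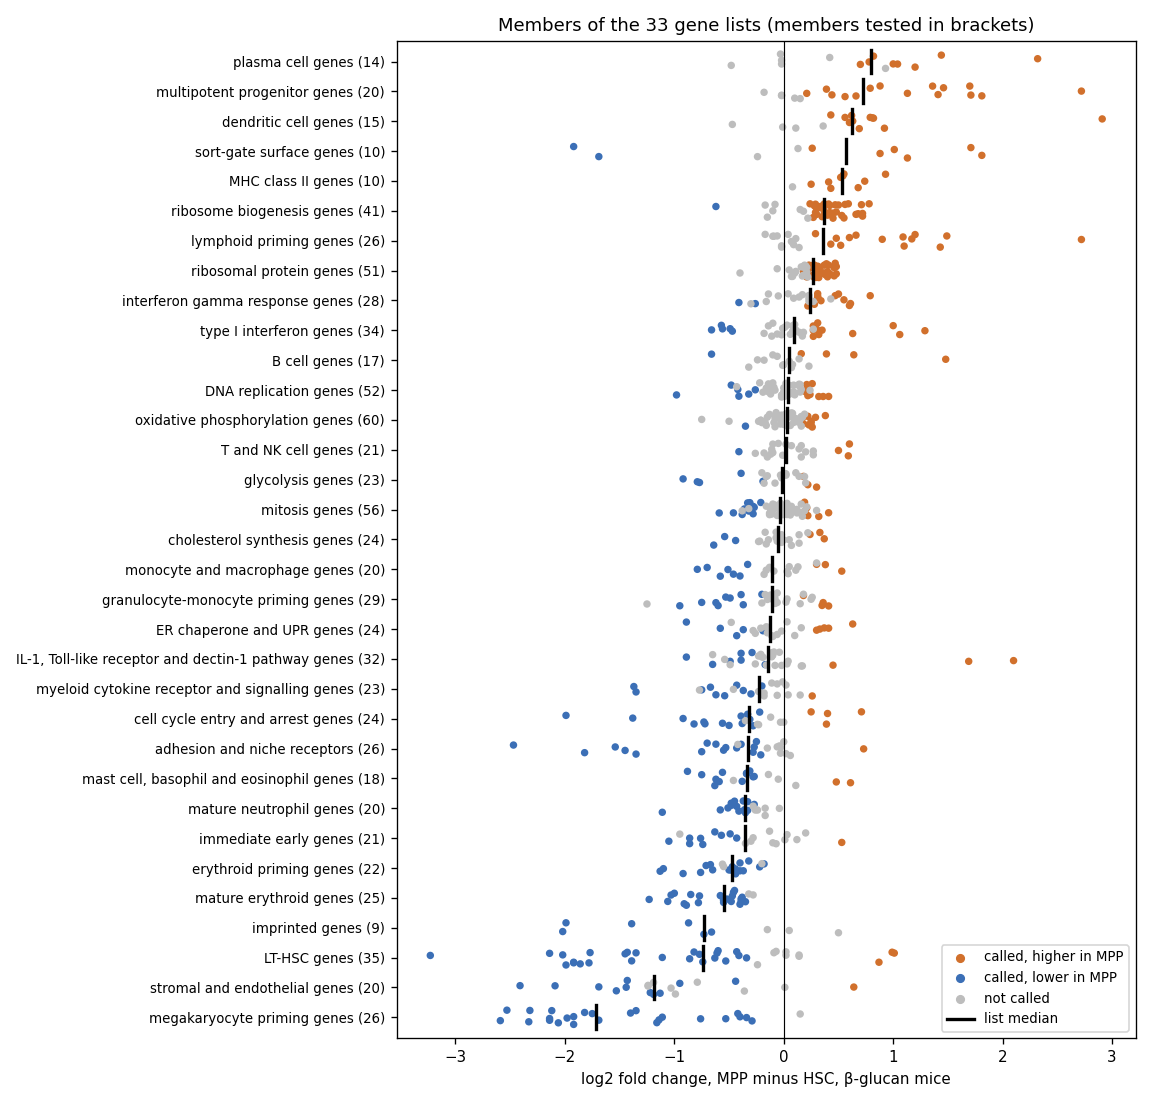
Each point is 1 tested gene of the 33 lists, by its log2 fold change, MPP minus HSC, in β-glucan mice; colours give the call and the black bar the list's median. Lists are ordered by median, from plasma cell genes (0.80) to megakaryocyte priming genes (-1.72).

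The same comparison in PBS mice called fewer genes. Of 16122 tested, 3493 (21.7%) were called by edgeR's quasi-likelihood test, 1544 higher (9.58%) and 1949 lower (12.1%) in MPP. This count ranged from 2004 without MPP library 1 of PBS mice, the library with the conflicting tag, to 5050 without HSC library 2. The comparisons in β-glucan and in PBS mice share no library. Of 15719 genes tested in both, 5616 were called in β-glucan mice and 3457 in PBS mice. Both comparisons called 2627 genes, which is 46.8% of the calls in β-glucan mice and 76.0% of those in PBS mice, and 2626 of these had the same direction. Of the 5616 genes called in β-glucan mice 5417 (96.5%) had the same sign in PBS mice. Across the 15719 genes, which are not independent replicates, the log2 fold changes of both comparisons had a Pearson correlation of 0.76 and a Spearman correlation of 0.76. The share with the same sign differed little by size, at 97.2% of the called genes over 2-fold in β-glucan mice, 97.0% of those of 1.5- to 2-fold and 96.0% of those under 1.5-fold. Of the genes over 2-fold 68.4% were also called in the same direction in PBS mice, against 40.3% of those under 1.5-fold; larger differences pass a threshold more easily. The median in that direction was 1.16 in PBS mice and 1.42 in β-glucan mice for the first of these classes, and 0.26 and 0.36 for the other. These genes were chosen and classed by their values in β-glucan mice, which by itself favours larger medians there. The medians therefore cannot show whether the size of the effect differed between treatments.

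Several of the lists described above were counted in PBS mice as well. Megakaryocyte genes had 24 of 25 tested members lower (median -1.77), erythroid priming genes 18 of 22 (median -0.52) and LT-HSC genes 21 of 34 (median -0.88, 1 higher). MPP genes had 15 of 20 higher (median 0.63), lymphoid priming genes 16 of 26 (median 0.51), dendritic cell genes 10 of 15 and MHC class II genes 8 of 10. Ribosome biogenesis genes had 24 of 41 higher (median 0.28) and ribosomal protein genes 25 of 51 higher with 1 lower (median 0.25). Interferon gamma response genes had 5 higher and 2 lower in PBS mice (median 0.03). Single genes in PBS mice had log2 fold changes of -2.33 ± 0.24 for Slamf1, -2.52 ± 0.16 for Vwf, 2.33 for Dntt, 1.03 ± 0.11 for Flt3 and 1.15 ± 0.18 for Il1r1, all called. Mki67 was called in PBS mice (0.53 ± 0.07), where Kit (-0.13) was not.

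The difference between the cell type effects, β-glucan minus PBS, was tested as a contrast of the 4 groups in 1 fit. Of 16691 genes, 1 was called (0.00599%), 0 higher (0.0%) and 1 lower (0.00599%), with 1033 genes at an unadjusted p under 0.05. The DESeq2 Wald test gave 2 genes and voom 1. None of the 2989 genes called in β-glucan mice and not in PBS mice had a called difference, so the larger number of calls in β-glucan mice does not show by itself that any of these effects differed. In simulated counts of this design the contrast recovered 47.8% of 1.5-fold and 88.1% of 2-fold differences. The changed genes had a mean CPM of at least 5 and were changed only in MPP of β-glucan mice, with group means otherwise equal. These shares therefore do not cover genes of lower level, which were also among those tested. With 200 changed genes, 7 of 163 edgeR calls and 33 of 204 DESeq2 calls were false. With nothing changed in the simulated counts, edgeR called 1 of 16471 genes. The gene called in the data was Igkv4-91 (ENSMUSG00000076532, chr6:68768555-68769103), a variable segment of the κ light chain, which is expressed from rearranged loci of B lineage cells. In PBS mice it was at 1.26, 2.77, 0.916 and 1.72 CPM in HSC and at 18.0, 21, 22.1 and 49.6 CPM in MPP. In β-glucan mice it was at 19.3, 32.3, 22.9 and 35.9 CPM in HSC and at 12.7, 0.721, 3.17 and 1.55 CPM in MPP. The order of the cell types was thus opposite in the treatments, with log2 fold changes of 4.04 ± 0.39 and -2.58 ± 0.62 and a difference of -6.64 ± 0.84 (adjusted p = 0.0047, edgeR's quasi-likelihood test). Its sequence resembles that of other segments, so its counts are uncertain.

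**Figure D5:**
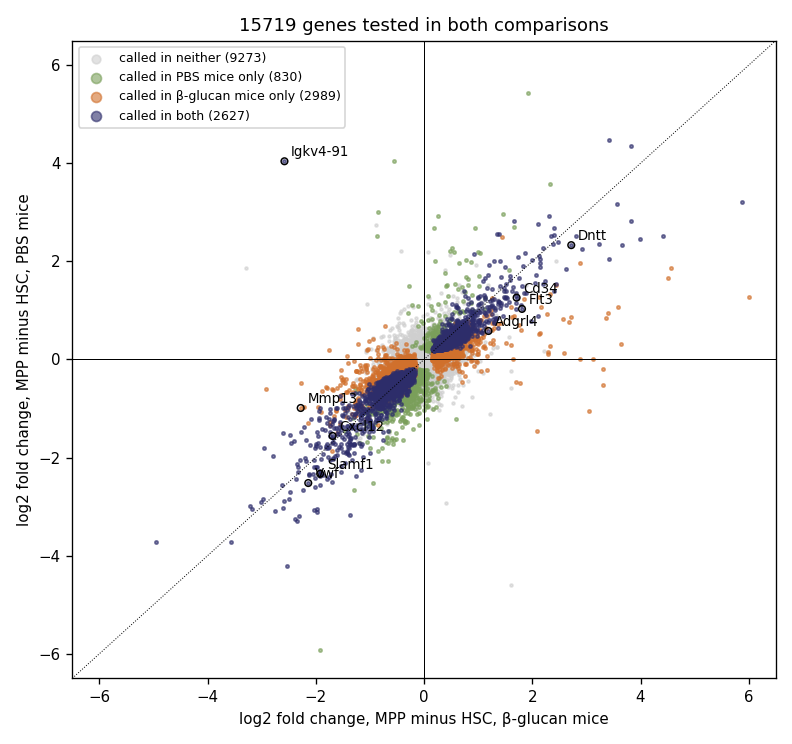
Each point is 1 of 15719 genes tested in both treatments, by its log2 fold change, MPP minus HSC, in β-glucan mice (x) and in PBS mice (y); the dotted line marks equal values and colours give the calls. The log2 fold changes had a Pearson correlation of 0.76, and Igkv4-91 lies in the upper left.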

How the data were processed

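The analysis used gene counts that the authors deposited in a table of 16 day 28 libraries. The submitters' processing notes name bcl2fastq 1.8.4 (demultiplexing), featureCounts and mm10. Of the aligner, the version of featureCounts and the annotation release: not given in the sources used here. Per the labels' protocols, RNA was amplified with a SMARTer Ultra kit, which does not mark strand, so overlapping and antisense genes are uncertain. Symbols came from GENCODE M21, for 45143 of 45706 identifiers; the other 563 held 0.0685 to 0.084% of counts.

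Genes were kept by filterByExpr (minimum count 10), scaled by TMM and tested with edgeR 4.0.16 (quasi-likelihood, R 4.3.3) in the 8 libraries of each comparison; p-values were adjusted by Benjamini and Hochberg's method over all genes, with a threshold of 0.05. A called gene passed this threshold. The standard error is the absolute log2 fold change divided by the square root of F. The members and the 33 gene lists were chosen with earlier results of these data known. Named genes were the 10 largest called, separated changes per direction at a mean log2 CPM of at least 2 (leaving out unnamed genes, pseudogenes and immunoglobulin and T cell receptor genes), the 8 next smallest p, the 4 lowest p in each list and 24 genes of prior interest; others are list members picked as examples after their values were seen. Numbered libraries were checked for pairing: same-number deviations correlated at 0.093, 0.152, 0.179 and 0.168 in β-glucan mice, and 1 of the 4 was under 0.1, so the unpaired fit was kept and the paired fit is given beside it. The 24 replicate pairs differed beyond sampling noise (chi-square of 7.7 to 50.3 per gene), so none was counted as 1 library. On simulated counts with 200 changed genes of mean CPM of at least 5, edgeR recovered 70.1% of 1.5-fold and 95.5% of 2-fold changes between cell types in β-glucan mice, with 9 of 186 calls false. Alternatives were DESeq2 1.42.0, limma 3.58.1 voom, other scalings and filters, all 4 groups in 1 fit, the replicate block and libraries left out; the fits on libraries 1 and 2 or 3 and 4 alone were added after seeing the data. Promoter sequences are those of RefSeq for GRCm38.p6, matched by symbol for 10267 of 15945 tested genes; the motif searches and the printed genes were chosen after their values were seen. A few genes were left out of the text.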

Additional observations from a re-analysis of the deposited data

Results flagged for a closer look

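Of 382 groups of 4 libraries examined (named genes and list shares in each cell type of β-glucan mice), 16 held a library far from the other 3; chance flags about 1 in 20 groups. In HSC, library 3 was apart for Btg1 (220.0 CPM, others 267 to 277), Dhcr7 (38.1, others 34.1 to 34.4) and Epx (526, others 689 to 725). HSC library 2 was apart for H2-Aa (315, others 295 to 297) and Il1rn (74.9, others 65.4 to 66.8), and HSC library 4 for Hmgcs1 (20.3, others 23.2 to 23.3) and Kit (154, others 175 to 179). The monocyte and macrophage list held 0.0859% of counts in HSC library 1 and 0.0952 to 0.0969% in the others.

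In MPP, library 4 was apart for Sstr2 (10.3 CPM, others 8.44 to 8.53), Esam (9.65, others 8.21 to 8.43) and Epx (295, others 379 to 389), and for the share of LT-HSC genes (0.141%, others 0.13 to 0.131%). MPP library 1 was apart for Cebpe (58.1 CPM, others 63.4 to 63.7) and library 2 for Jak1 (155, others 178 to 180.0) and the share of cholesterol synthesis genes (0.0584%, others 0.0626 to 0.0631%). The share of type I interferon genes was 0.195% in MPP library 3 and 0.188 to 0.189% in the others.

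The difference of the cell type effects between β-glucan and PBS mice was called for 1 gene, Igkv4-91 (-6.64 on the log2 scale, β-glucan minus PBS).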

How the results depend on the processing

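Values rest on 4 libraries per group whose independence the labels do not state, on unstranded counts and on sorts with unstated gates; for genes of low level, such as Hoxb5, the depth limits what could be detected. In β-glucan mice the count of 5678 genes was 4750 to 6137 with the other scalings, filters and tools, 4605 to 5684 with 1 library left out and 6706 with the replicate block; it was 1558 with libraries 3 and 4 alone, a fit of 2 against 2 libraries in which 41.4% of calls were higher in MPP, against 49.6% of the main calls. Each β-glucan library correlated best with its own number in the other cell type, a hint from the data and not from the design. In PBS mice the same-number correlations were 0.078, 0.046, 0.074 and -0.004. There HSC library 4 correlated best with MPP library 1 (0.104) and HSC library 2 with MPP library 4 (0.077). The PBS count of 3493 was 2004 to 5050 with 1 library left out and 3516 with the replicate block. The difference between treatments gave 1 to 3 genes with 1 library left out, and 2 with no filter, with DESeq2 and with the replicate block; the cause was not tested. Igkv4-91 was among the calls in each of these fits. Of 157 named genes 123 kept their side of the threshold under all 18 alternatives. Over all named genes and alternatives 50 values lost the call and 6 gained it. Among values called in the main fit or the alternative, 0 changed sign. Sign changes of genes called in neither fit were not counted, and some occurred. Meis1 and Mpo, above 0 in the main fit, were -0.07 without MPP library 4 and -0.01 without MPP library 1, respectively. Of the 33 lists, 8 kept their median within 1 SD of its spread between libraries under all alternatives, and 55 medians of the others moved by more.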

Other observations

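Immunoglobulin variable segments, which were in none of the gene lists and were counted after their values were seen, were measurable for 176 segments in β-glucan mice. Of these, 67 were higher in MPP and 1, Igkv4-91, was lower (median log2 fold change 1.12), against 17.7% of all genes higher and 18.0% lower. Of 12 immunoglobulin constant region and joining chain genes 8 were higher and 0 lower (median 0.93). Among 6 tested Hox genes 2 were higher and 1, Hoxb5, was lower. Of 10 S100 genes, which encode calcium-binding proteins, 1 was higher and 3 lower (median -0.26). Of 9 Gimap genes, GTPases of lymphocytes, 3 were higher and 1 lower (median -0.03). The Hox, S100 and Gimap families were also named after their values were seen. With so few members, their counts are not told apart from the same shares of all genes.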
